A study of Mus musculus with 49 samples.

Results

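The cells compared here are the 2 sets, labelled 1CDS1 and 1CDS2, of a diploid mouse embryonic stem (ES) cell line grown with serum. They were taken from the authors' serum table of single-cell Hi-C features, where a cell had to carry the authors' flag for passing quality control, and they make up all passing cells of that table. These were 859 of 1175 listed cells, out of 4098 passing cells in the whole series. Set 1CDS1 gave 428 of its 587 listed cells and 1CDS2 gave 431 of 588. Both sets came from the same line, an F1 hybrid between 129/SV-Jae and castaneus mice, cultured on feeder cells with fetal bovine serum. For cultures on feeders, the labels describe removal of the feeders, fixation with formaldehyde and sorting for the stem cell factor Oct-3/4. What distinguishes 1CDS1 from 1CDS2 is not given in the sources used here, and neither is whether the line is a single clone. The tables hold no value per gene, so the identity of the cells was not checked against marker genes.

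Hi-C records which stretches of DNA lie next to each other in the nucleus. In interphase, chromosomes are partitioned into domains whose borders hold contacts apart (insulation) and into active and inactive compartments. On entry into mitosis these structures are lost, contacts concentrate at a distance typical of rod-like mitotic chromosomes, and in early G1 the structures form again. During S phase early-replicating DNA is present in more copies than late-replicating DNA, and that excess is gone once replication is complete. The authors ordered the passing cells along the cycle and divided the order into 5 groups, called phases below: post-M and G1, then early-S and late-S/G2, and last pre-M.

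The cells came from 8 libraries, and the cells of 1 set in 1 library were the unit of every test. Set 1CDS1 had 11 passing cells in diploid 1_6, 64 in diploid 2_14, 154 in diploid 3, 151 in diploid 4 and 48 in diploid 5_10. Set 1CDS2 had 12 in diploid 1_6, 70 in diploid 5_10, 79 in diploid 7, 109 in diploid 8 and 161 in diploid 9. Libraries diploid 1_6 and diploid 5_10 thus held both sets, and in each the sets were set against each other within the library. Their names join numbers, 1 with 6 and 5 with 10, as does that of diploid 2_14, which held 1CDS1 alone here. Whether joined numbers stand for separate preparations was not examined. A difference in preparation between the sets within a library therefore cannot be told apart from one between the sets. The labels do not say that libraries are separate cultures, so p-values measure the spread between these libraries only, which may be technical. The median number of contacts per cell was 227034 in 1CDS1 and 305918 in 1CDS2, with quartiles of 122028 and 352604 in 1CDS1 and of 165510 and 421602 in 1CDS2. Summed over cells, a unit held between 1407789 and 46267744 contacts. Cell barcodes recur between libraries: 26 of 28 pairs of libraries shared between 23 and 192 barcode combinations, and 0 were repeated within a library. Each library had a sequencing lane of its own, and the part of the lane in a difference cannot be told apart from that of the library.

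The sets differed in where their cells lay in the cycle. In 1CDS1 most cells were in early-S, and in 1CDS2 most were in late-S/G2. Early-S held 63.6% of the 1CDS1 cells in diploid 1_6, 64.1% in diploid 2_14, 59.1% in diploid 3, 64.9% in diploid 4 and 58.3% in diploid 5_10. In 1CDS2 the early-S share was 33.3% in diploid 1_6, 34.3% in diploid 5_10, 22.8% in diploid 7, 19.3% in diploid 8 and 22.4% in diploid 9. Every 1CDS1 unit was thus above every 1CDS2 unit. The means were 62.0% ± 3.05 (SD, n = 5) and 26.4% ± 6.90 (SD, n = 5), a difference of 35.6 percentage points. The two-sided exact permutation test gave p = 0.025, the smallest that its 80 arrangements allow, and 0.0625 after Benjamini-Hochberg adjustment over the 5 phases, so this difference did not pass the threshold of 0.05. Here labels were permuted among the libraries with 1 set and values were swapped within the libraries holding both.

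The late-S/G2 shares were ordered the other way. They ran from 9.09% to 31.2% over the 1CDS1 units and from 33.3% to 62.4% over the 1CDS2 units, again without overlap. The mean was 18.5% ± 8.29 (SD, n = 5) in 1CDS1 and 51.1% ± 11.36 (SD, n = 5) in 1CDS2, with the same exact p of 0.025 and adjusted p of 0.0625. The G1 share was 19.4% ± 7.22 in 1CDS1 and 18.2% ± 8.55 in 1CDS2 (SD, n = 5 each), with overlapping units and an exact p of 0.7. The difference in G1 share was 1.29 points with all libraries, -0.179 without diploid 3 and -0.0838 without diploid 7, so it had no stable direction.

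Cells next to mitosis were listed for 1CDS2 alone. Pre-M held 17 of 431 1CDS2 cells, or 3.94% (exact Clopper-Pearson 95% interval 2.31% to 6.24%), from 4 of the 5 units. Post-M held 6 of 431, or 1.39% (0.513% to 3.01%), also from 4 units. In 1CDS1 both phases held 0 of 428 cells, which allows a share of up to 0.701%. Intervals and limits of this kind cover counting error only. Over libraries, the exact p was 0.05 for either phase (adjusted 0.0625), and the 1CDS2 cells of diploid 1_6 also held none.

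**Figure D1:**
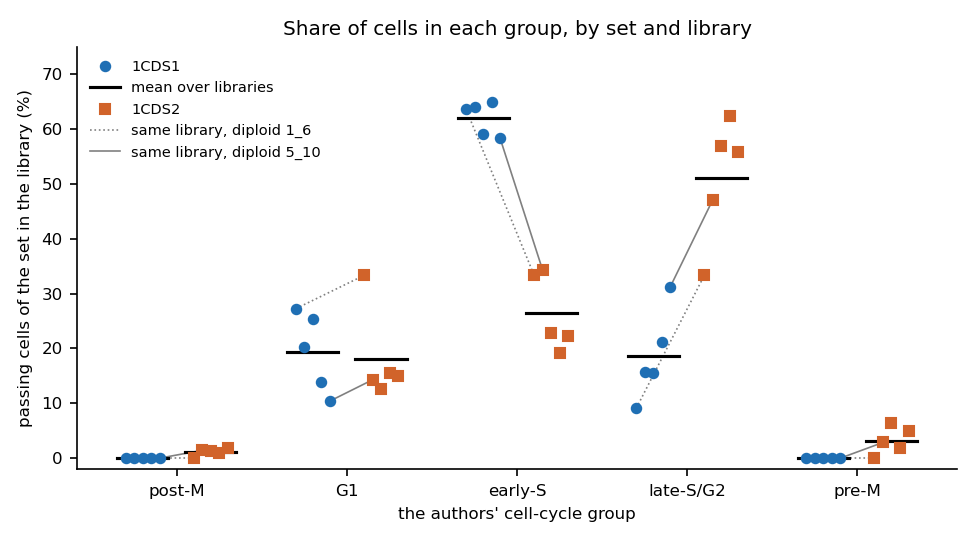
Share of each unit's passing cells (%) in the authors' 5 cell-cycle groups; a point is 1 set in 1 library, black bars are means over libraries, and grey lines join the sets of diploid 1_6 and diploid 5_10. The 1CDS1 points lie at 58.3% to 64.9% in early-S, above all 1CDS2 points, and at 9.09% to 31.2% in late-S/G2, below them.

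The same contrast appeared inside libraries holding both sets. In diploid 5_10 early-S held 58.3% of 1CDS1 and 34.3% of 1CDS2 cells, and late-S/G2 held 31.2% and 47.1%. In diploid 1_6 early-S held 63.6% and 33.3%, from 11 and 12 cells. The mean difference within these 2 libraries was 27.2 points for early-S and -20.1 points for late-S/G2 (1CDS1 minus 1CDS2), and 2 libraries allow no p below 0.5.

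Along the authors' order, from rank 1 to 859, the median rank was 358.5 for 1CDS1 and 613 for 1CDS2. Cut into 20 bins of 42 or 43 cells, the order held between 79.1% and 83.7% 1CDS1 cells in bins 8 and 10 to 12 and 74.4% in bin 9, all of them in early-S. Bins 17 to 20, the end of late-S/G2 and pre-M, held 6 cells of 1CDS1 and 166 of 1CDS2. The shares of the sets' cells in these last bins were 1.402% and 38.5%. At the start of the order, in bins 1 to 5, the sets held like shares, 26.9% and 22.97% of their cells. The widest gaps between the sets lay in bins 8 to 12 and 17 to 20. Between them, bins 13 and 14 held 24 and 25 cells of 1CDS1 against 19 and 18 of 1CDS2, and within the first 5 bins, bin 2 held 29 against 14.

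**Figure D2:**
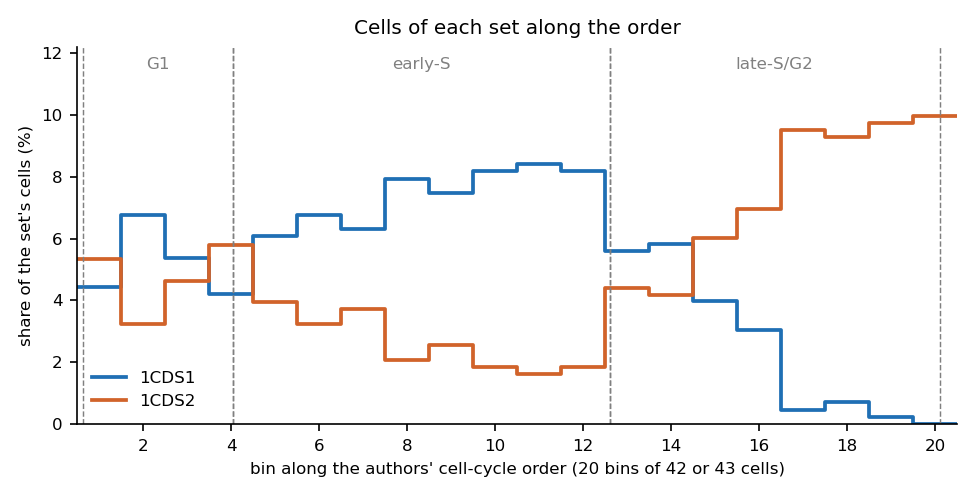
Share of each set's cells (%) in 20 successive bins of the authors' order, with dashed lines at the limits of G1, early-S and late-S/G2. The 1CDS1 line stands above 1CDS2 from bin 5 to bin 14, with 8.41% against 1.62% in bin 11, and is at 0% in bin 20, where 1CDS2 has 9.98%.

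The sets also lay at different places within a phase. Position was expressed as the rank within the phase in percent, averaged per unit with at least 10 cells of that phase. In late-S/G2 the mean position of 1CDS1 cells was 22.2% in diploid 2_14, 27.3% in diploid 3, 25.1% in diploid 4 and 24.2% in diploid 5_10. For 1CDS2 it was 61.7% in diploid 5_10, 58.1% in diploid 7, 55.3% in diploid 8 and 61.4% in diploid 9. All 1CDS1 units thus sat in the first part of late-S/G2, and the difference was -34.4 points (exact p = 0.05, the smallest that 40 arrangements allow, and 0.0667 adjusted over 4 comparisons). In early-S the 1CDS1 cells lay later by 14.4 points, with 52.2% to 61.6% against 32.3% to 49.8% and no overlap (exact p = 0.05). In G1 the difference was -6.04 points, with overlapping units (exact p = 0.45). For features that varied along the order, the difference between cells matched on position is therefore given too. For matching, each phase was cut into 3 parts of equal length along the order and the differences were averaged over the parts with at least 3 cells per unit. The last part of late-S/G2 held 4 cells of 1CDS1, too few to enter. Each part had equal weight, so in matched averages over phases late-S/G2 weighs less than G1 or early-S.

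Chromosome features were compared as unit means within G1, early-S and late-S/G2 and as the average of the 3 differences, which gives each phase equal weight. A feature was called at an adjusted p of 0.05 or less. Averaged over phases, 0 of 13 features (0%) were called, with 0 at an unadjusted p under 0.05 and a lowest adjusted p of 0.1625. The exact test has 40 arrangements here and cannot go below 0.05, which 4 features reached: the alignment score, the replication score, contacts per cell and the coverage deviation. Within phases, 0 of 39 tests (0%) were called and 15 were at the smallest p. Of diploid 5_10 only the 1CDS2 unit had 10 cells in G1. In tests on such G1 means its label was therefore switched without a partner, not swapped within the library. The sets did not overlap in 4 of 13 features in G1 (30.8%), 5 of 13 in early-S (38.5%) and 5 of 13 in late-S/G2 (38.5%). Values below are therefore descriptions of these libraries with their spread.

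The alignment score, which by its column name describes how chromosomes line up with each other, had the largest difference of the 13 features in SD units in G1 and in early-S, and ranked 10 of 13 in late-S/G2. Its scale is not defined in the sources used here. In G1 it was 0.352 in diploid 2_14, 0.368 in diploid 3 and 0.386 in diploid 4 for 1CDS1, and 0.275 in diploid 5_10, 0.269 in diploid 7, 0.286 in diploid 8 and 0.289 in diploid 9 for 1CDS2. The means were 0.369 ± 0.0171 (SD, n = 3) and 0.280 ± 0.00930 (SD, n = 4), without overlap, a difference of 0.0893 (exact p = 0.05, adjusted 0.13).

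In early-S the alignment score of 1CDS1 was 0.330 in diploid 2_14, 0.330 in diploid 3, 0.327 in diploid 4 and 0.323 in diploid 5_10. For 1CDS2 it was 0.243 in diploid 5_10, 0.236 in diploid 7, 0.247 in diploid 8 and 0.267 in diploid 9. The 1CDS1 units lay close together and all above the 1CDS2 units, with a difference of 0.0792 (exact p = 0.05, adjusted 0.13). In late-S/G2 the sets overlapped, with 0.293 to 0.341 against 0.285 to 0.320 and a difference of 0.0161 (exact p = 0.25).

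Averaged over phases the alignment score was higher in 1CDS1 by 0.0615 (exact p = 0.05, adjusted 0.1625). Between cells matched on position it was higher by 0.0616 (exact p = 0.025, adjusted 0.1625). Units with at least 3 cells enter the matched test, which therefore allows a smaller p. The matched value was 0.0827 in G1 and 0.0664 in early-S. Along 10 bins of the order, the mean was higher in 1CDS1 in all 9 bins where both sets had a unit with 3 or more cells. In 1CDS1 it went from 0.413 in bin 1 to between 0.303 and 0.338 afterwards. In 1CDS2 it went from 0.334 in bin 1 down to 0.210 in bin 3, which lies in early-S, and back up to 0.293 in bin 6. The place of this low point depended on the cut. With each phase in 3 parts, the 1CDS2 mean was 0.212 in the last part of G1 and 0.232 in the first part of early-S. From early-S to late-S/G2 the unit means of 1CDS2 differed by 0.0569 on average, upward in 4 of 4 units, and those of 1CDS1 by -0.00621, upward in 2 of 4. That difference between steps was -0.0631 (exact p = 0.05, the smallest that 40 arrangements allow, adjusted 0.13). Of the 26 steps, 0 (0%) were called and 10 were at that smallest p. An unadjusted p under 0.05, reached by 0 steps, was not possible.

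Contacts between chromosomes, the share of a cell's contacts joining different chromosomes, did not separate the sets in the same way. The difference in this between-chromosome share was -0.0836 percentage points averaged over phases (exact p = 0.55), and its sign was not the same in all phases. The mean was 7.37% ± 0.268 in 1CDS1 and 7.87% ± 0.433 in 1CDS2 in early-S (SD, n = 4 each), and the units overlapped in all 3 phases. In late-S/G2 it was 6.51% ± 0.270 in 1CDS1 and 5.86% ± 0.336 in 1CDS2 (SD, n = 4 each), a difference of 0.645 points (exact p = 0.1). Over all cells whatever their phase the difference was 0.764 points (exact p = 0.025, adjusted 0.0812). Diploid 2_14 stood apart within 1CDS1 in early-S at 7.77%, the other 3 units lying between 7.19% and 7.28%.

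The far-contact distance, the mean separation of the more distant contacts within a chromosome, had a lower mean in 1CDS1 than in 1CDS2 in G1 and early-S and a higher one in late-S/G2. In early-S it was 25.2 Mb in diploid 2_14, 24.8 Mb in diploid 3, 24.99 Mb in diploid 4 and 24.8 Mb in diploid 5_10 for 1CDS1. In 1CDS2 it was 26.7 Mb in diploid 5_10, 26.8 Mb in diploid 7, 25.5 Mb in diploid 8 and 26.2 Mb in diploid 9. The difference was -1.36 Mb, without overlap (exact p = 0.05, adjusted 0.13), and -0.953 Mb between cells matched on position. In late-S/G2 the order turned, with 24.5 Mb ± 0.214 in 1CDS1 against 23.2 Mb ± 0.389 in 1CDS2 (SD, n = 4 each), also without overlap. That difference of 1.28 Mb came to 0.269 Mb between cells matched on position (exact p = 0.65). The means were 24.56 Mb in 1CDS1 and 24.88 Mb in 1CDS2 in the first part of late-S/G2 and 24.49 and 23.63 Mb in the middle part, with overlapping units in both. In G1 the distance was 22.6 Mb ± 1.50 (SD, n = 3) and 24.3 Mb ± 0.634 (SD, n = 4), with overlapping units (exact p = 0.2), and the difference of -1.66 Mb was -0.941 Mb between matched cells. Averaged over phases the difference was -0.583 Mb (exact p = 0.2).

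Among cells of a unit and phase, cells with shorter far contacts had higher alignment scores. In early-S, Spearman's rho between both measures lay between -0.745 and -0.502 over the 4 units of 1CDS1 and between -0.713 and -0.246 over the 4 of 1CDS2. In G1 it lay between -0.868 and -0.605 over 3 units of 1CDS1 and between -0.867 and -0.723 over 4 of 1CDS2. Cells of a unit share their library, and both measures moved with the position in G1, so these values are a description.

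Replication was followed by the replication score, whose lowest cell in the table is 1 and whose scale is otherwise not defined. In G1 the sets were alike within their spread, at 1.04 ± 0.0135 (SD, n = 3) and 1.04 ± 0.0160 (SD, n = 4), with a difference of -0.00195 (exact p = 0.8). In late-S/G2 it was 1.31 in diploid 2_14, 1.26 in diploid 3, 1.29 in diploid 4 and 1.32 in diploid 5_10 for 1CDS1. For 1CDS2 it was 1.15 in diploid 5_10, 1.13 in diploid 7, 1.14 in diploid 8 and 1.15 in diploid 9. All 1CDS1 units were above all 1CDS2 units, with a difference of 0.156 (exact p = 0.05, adjusted 0.13).

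Matched on position, that late-S/G2 difference was 0.0999 (exact p = 0.05). In the first part of late-S/G2 the score was 1.30 ± 0.0256 in 1CDS1 and 1.24 ± 0.0260 in 1CDS2 (SD, n = 4 each), and in the middle part 1.28 ± 0.0360 (SD, n = 3) and 1.15 ± 0.0194 (SD, n = 4), without overlap in either. In early-S the units ran from 1.19 to 1.24 in 1CDS1 and from 1.12 to 1.18 in 1CDS2, with a difference of 0.0476 (exact p = 0.05). Within each of the 3 parts of early-S the units overlapped. Averaged over phases the difference was 0.0672 (exact p = 0.05, adjusted 0.1625). Between cells matched on position it was 0.0300, an average in which late-S/G2 weighs less.

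The steps of the score between phases also differed between the sets, though they were not called. In early-S it was above G1 in 3 of 3 units of 1CDS1 and 4 of 4 of 1CDS2, by 0.153 and 0.114 on average. From early-S to late-S/G2 it differed by 0.0945 in 1CDS1 and by -0.0137 in 1CDS2, where 1 of 4 units went up (exact p = 0.05, adjusted 0.13). The late-S/G2 cells lay at mean positions of 24.7% and 59.1% of that phase, so unlike stretches entered this step. Along 10 bins of the order it was highest in bin 7 in 1CDS1, at 1.33, and in bin 6 in 1CDS2, at 1.28. In 1CDS2 the peak was not distinct, with 1.278 ± 0.0155 in bin 6 (SD, n = 3) and 1.268 ± 0.0113 in bin 7 (SD, n = 4). In bin 8 it was 1.28 in 1CDS1 and 1.16 in 1CDS2, and the units did not overlap.

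**Figure D3:**
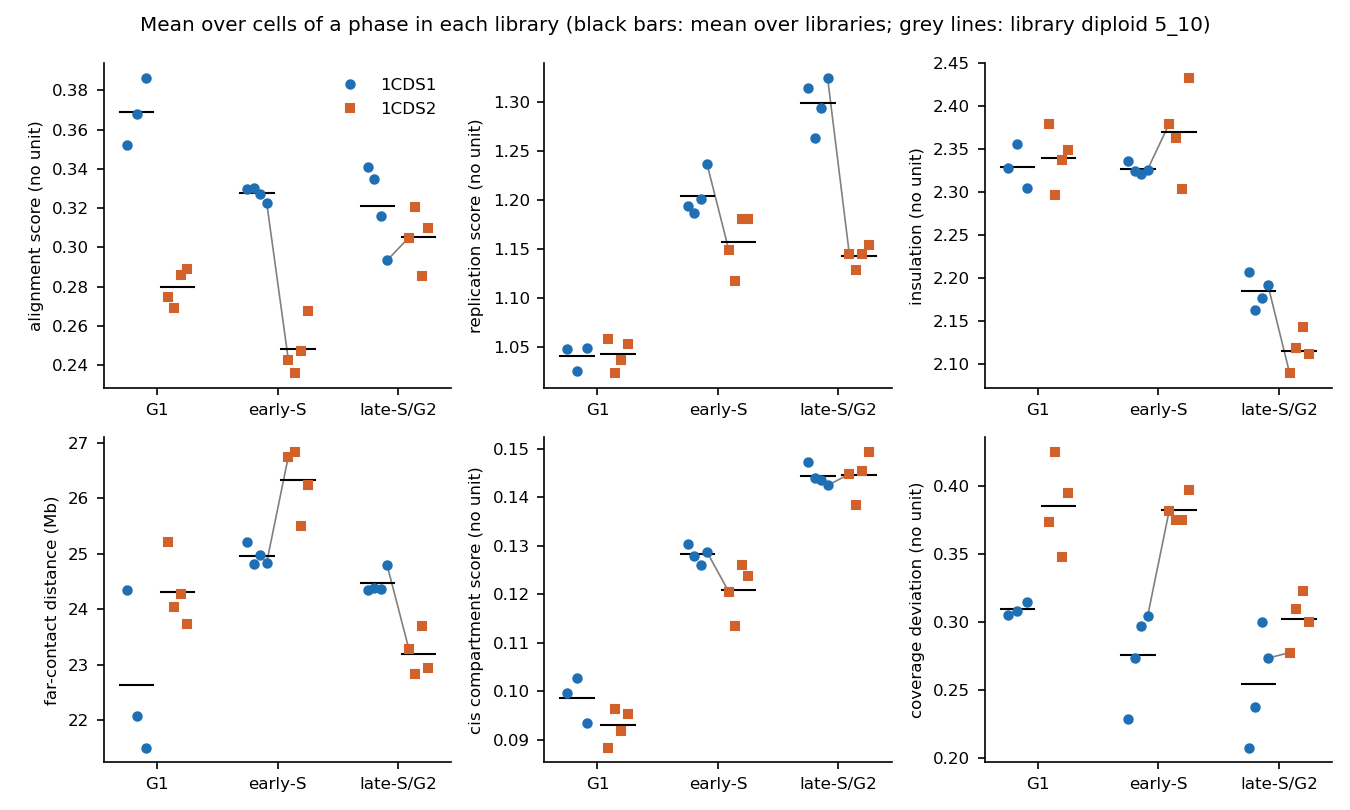
Mean of 6 features over the cells of a phase; a point is 1 set in 1 library with at least 10 cells of the phase, black bars are means over libraries, and grey lines join the sets of diploid 5_10. The alignment score of 1CDS1 lies above that of 1CDS2 in G1 and early-S (0.323 to 0.386 against 0.236 to 0.289), and the replication score of 1CDS1 lies above in late-S/G2 (1.26 to 1.32 against 1.13 to 1.15).

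Insulation, the strength of domain borders averaged over a cell, did not separate the sets in G1 or early-S. The early-S difference was -0.0425 (exact p = 0.2). The G1 means were 2.33 ± 0.0255 (SD, n = 3) and 2.34 ± 0.0341 (SD, n = 4), and the early-S means 2.33 ± 0.00638 and 2.37 ± 0.0535 (SD, n = 4 each), with overlapping units. In late-S/G2 it was 2.21 in diploid 2_14, 2.16 in diploid 3, 2.18 in diploid 4 and 2.19 in diploid 5_10 for 1CDS1, against 2.09 in diploid 5_10, 2.12 in diploid 7, 2.14 in diploid 8 and 2.11 in diploid 9 for 1CDS2. The 1CDS1 units were all higher, by 0.0691 on average (exact p = 0.05, adjusted 0.13) and by 0.0648 between cells matched on position. In the first part of late-S/G2 the means were 2.19 ± 0.0280 and 2.14 ± 0.0235 (SD, n = 4 each), with overlapping units. The difference averaged over phases was 0.00538 (exact p = 0.75), and 0.0209 between cells matched on position. The differences in early-S and late-S/G2 that enter the average over phases had opposite signs.

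In both sets insulation and replication moved against each other across early-S. Spearman's rho between both scores among early-S cells lay between -0.794 and -0.710 over the 4 units of 1CDS1 and between -0.662 and -0.119 over the 4 of 1CDS2. The replication score went up with position in early-S in every unit of both sets (rho 0.769 to 0.939 and 0.817 to 0.936), and insulation went down (-0.750 to -0.600 and -0.670 to -0.206). Both relations with position are descriptions over cells that share a library, and which features made the authors' order is not stated in the sources used here.

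**Figure D4:**
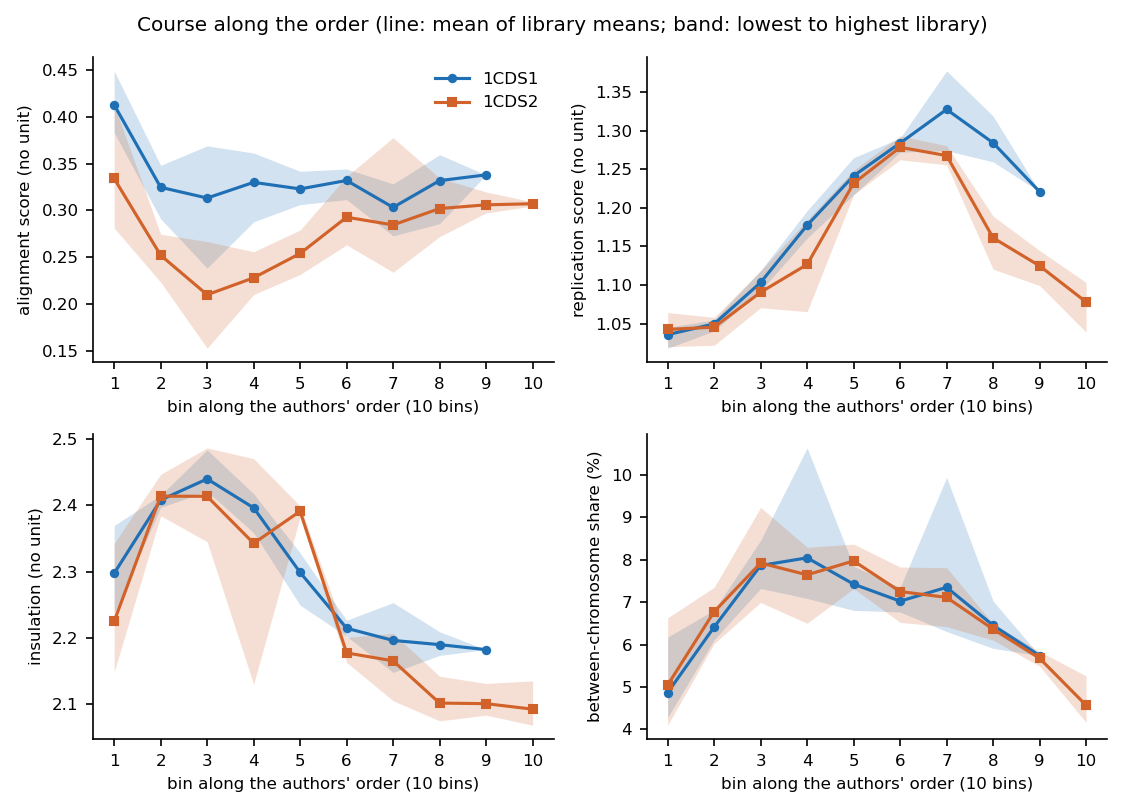
Alignment score, replication score, insulation and between-chromosome share (%) in 10 successive bins of the authors' order; lines are means of library means with at least 3 cells, and bands run from the lowest to the highest library. The alignment score of 1CDS1 stays above 1CDS2 in all 9 bins with both sets, the replication score is highest in bin 7 for 1CDS1 (1.33) and in bin 6 for 1CDS2 (1.28), and bin 9 has a single 1CDS1 library.

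Compartments, the separation of active from inactive chromatin, were scored within chromosomes (in cis) and between them (in trans). The cis compartment score in early-S was 0.1304 in diploid 2_14, 0.128 in diploid 3, 0.126 in diploid 4 and 0.129 in diploid 5_10 for 1CDS1. In 1CDS2 it was 0.121 in diploid 5_10, 0.114 in diploid 7, 0.126 in diploid 8 and 0.124 in diploid 9. The lowest 1CDS1 unit lay just above the highest 1CDS2 unit, and the difference was 0.00732 (exact p = 0.05, adjusted 0.13), and 0.00333 between cells matched on position. In late-S/G2 the means were 0.144 ± 0.00209 and 0.144 ± 0.00447 (SD, n = 4 each), a difference of -0.000184 (exact p = 0.95). The cis score differed by 0.00423 averaged over phases (exact p = 0.15). The trans compartment score differed by -0.00292 (exact p = 0.65), with overlapping units in all 3 phases.

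The near-band and mitotic-band shares are the parts of a cell's contacts at short distances and at distances typical of mitotic chromosomes, with limits not given in the sources used here. Both shares followed the order, in late-S/G2 the near-band share more closely. There Spearman's rho between the near-band share and position lay between 0.920 and 0.989 over all 8 units. For the mitotic-band share it lay between -0.758 and -0.591 in 1CDS1 and between -0.719 and -0.575 in 1CDS2. In late-S/G2 the near-band share was 80.4% ± 0.135 in 1CDS1 and 82.3% ± 0.374 in 1CDS2 (SD, n = 4 each), and the mitotic-band share 8.92% ± 0.0780 and 8.48% ± 0.0857, both without overlap. In early-S the near-band share was 72.7% ± 0.292 and 70.9% ± 1.14 (SD, n = 4 each), with overlapping units and a difference of 1.72 points, which was -0.254 between cells matched on position. In late-S/G2, between cells matched on position, both differences turned, from -1.89 to 0.587 points and from 0.442 to -0.391 points. Averaged over phases the near-band share differed by -0.0239 points (exact p = 0.9) and the mitotic-band share by 0.172 points (exact p = 0.5), while the matched averages were 0.876 and -0.188 points.

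Other steps between phases are given as values, none of the 26 having been called. From early-S to late-S/G2 the near-band share differed by 7.70 points in 1CDS1 and 11.3 in 1CDS2, and the cis compartment score by 0.0160 and 0.0235, upward in 4 of 4 units of either set. From G1 to early-S the mitotic-band share differed by -6.27 and -5.55 points, upward in 0 of 3 and 0 of 4 units. Contacts per cell differed by 31989 in 1CDS1 and -10762 in 1CDS2 at that step, the duplicated share by 0.466 and 0.0455 points and the coverage deviation by -0.0432 and -0.00282.

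Over all cells whatever their phase, the contrast in phase mix entered the values. Here 0 of 13 features (0%) were called, with 4 at an unadjusted exact p under 0.05 and a lowest adjusted p of 0.0812. The units did not overlap for 2 of 13 features (15.4%), insulation and the replication score. Insulation was 2.30 ± 0.0143 in 1CDS1 and 2.21 ± 0.0283 in 1CDS2 (SD, n = 5 each), a difference of 0.0909, and 0.0209 between cells matched on position. The replication score differed by 0.0679, the alignment score by 0.0468, the cis compartment score by -0.00647 and the far-contact distance by 0.564 Mb. The last 2 had the opposite sign between cells matched on position, 0.00731 and -0.643 Mb.

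Depth and quality differed between the sets as well. Averaged over phases, a 1CDS1 cell had 238988 contacts and a 1CDS2 cell 308189, a difference of -69201 (exact p = 0.05, adjusted 0.1625). Without diploid 4 it was -43041, and the G1 difference was -88944 with all libraries and -52648 without diploid 4. In G1 the mean count was 262267 in diploid 2_14, 269964 in diploid 3 and 157229 in diploid 4 for 1CDS1, all below the 303371 to 343407 of the 4 units of 1CDS2. In early-S and late-S/G2 the units overlapped. The share of reads without digestion differed by -1.61 points (exact p = 0.15) and the duplicated share by -0.415 points (exact p = 0.15) averaged over phases, the latter being -0.222 points without diploid 8. In G1 the duplicated share was 2.29% ± 0.185 (SD, n = 3) and 3.04% ± 0.349 (SD, n = 4), without overlap. With cells restricted to the middle 50% of contacts per cell, the early-S difference was 0.0692 in alignment score and -2.01 Mb in far-contact distance (-1.36 Mb with all cells). Over all phases together it was 0.0543 in alignment score and 0.0238 in replication score (exact p = 0.325), the latter being 0.0679 with all cells. Within late-S/G2 the restricted difference was 0.109 in replication score (0.156 with all cells) and 0.0626 in insulation (0.0691 with all cells). This restriction gave no value in G1 and none averaged over phases. The part of depth in the G1 differences, the alignment score among them, was therefore not tested, although contacts per cell did not overlap there. The part that depth plays in the other differences was not tested beyond this restriction.

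The coverage deviation is a score per cell of how far the coverage of single chromosomes departs from the rest, by its column name the largest such departure. It had a mode between 0.1 and 0.15 in both sets and a broad second group of cells at higher values. Set 1CDS1 had 30.1% of its cells in that first mode and 1CDS2 20.0%. With a limit of 0.25 chosen after the values were seen, 41.8% of 1CDS1 cells (95% interval 37.1% to 46.7%) and 65.9% of 1CDS2 cells (61.2% to 70.4%) were at or above it. Between 0.2 and 0.3, near the limit, lay 32 and 54 cells.

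The contrast was widest before late-S/G2. In G1 the share at or above 0.25 was 38.5% in diploid 2_14, 46.2% in diploid 3 and 47.6% in diploid 4 for 1CDS1, and 100% in diploid 5_10, 100% in diploid 7, 88.2% in diploid 8 and 91.7% in diploid 9 for 1CDS2. In early-S it ran from 31.7% to 57.1% over the 1CDS1 units and from 71.4% to 91.7% over the 1CDS2 units. In late-S/G2 the ranges were 29.2% to 40.0% and 48.5% to 54.4%. The sets did not overlap in any of these 3 phases. In diploid 1_6, which had too few cells per phase to enter, 8 of 11 and 8 of 12 cells were at or above the limit. The cells above the limit had a higher mean score in 1CDS1, 0.541 against 0.396 in G1 and 0.479 against 0.417 in early-S (units with 5 or more such cells).

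**Figure D5:**
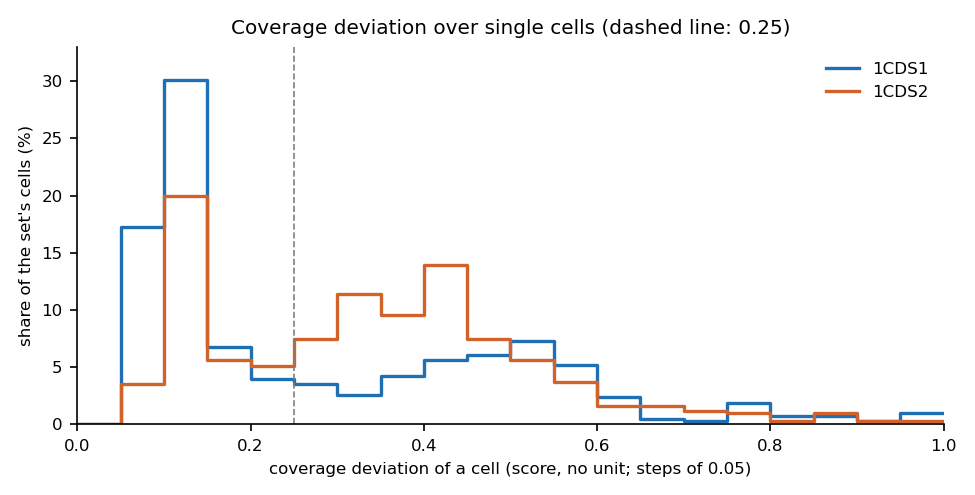
Share of each set's cells (%) by coverage deviation in steps of 0.05, with a dashed line at 0.25. Both sets have a mode between 0.1 and 0.15 (30.1% of 1CDS1 and 20.0% of 1CDS2 cells), and the cells above the line spread around higher values in 1CDS1 than in 1CDS2.

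As unit means, the coverage deviation was 0.309 ± 0.00510 (SD, n = 3) in 1CDS1 and 0.385 ± 0.0328 (SD, n = 4) in 1CDS2 in G1, and 0.276 ± 0.0342 and 0.382 ± 0.0104 in early-S (SD, n = 4 each), without overlap. The difference averaged over phases was -0.0767 (exact p = 0.05, adjusted 0.1625). Among cells at or above 0.25, the alignment score was 0.350 in 1CDS1 against 0.282 in 1CDS2 in G1 and 0.324 against 0.251 in early-S, without overlap of units with 5 or more such cells. The late-S/G2 difference in replication score was 0.156 below the limit and 0.157 at or above it. The coverage deviation of the cells at or above 0.25 itself differed between the sets, as given above. Below it, 1CDS2 had 0 units with 5 or more cells in G1 and 1 in early-S. The part of chromosome coverage in the differences between the sets was not tested beyond these values.

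Diploid 5_10 sets both sets side by side within a library, and its values are part of the means above. In early-S, with 28 cells of 1CDS1 and 24 of 1CDS2, the alignment score was 0.323 and 0.243, the replication score 1.24 and 1.15, insulation 2.33 and 2.38, and the far-contact distance 24.8 and 26.7 Mb. Alignment and replication were thus higher in 1CDS1 there, and insulation and the distance lower. The between-chromosome share was 7.25% and 7.64%, the near-band share 72.9% and 70.6%, and the mitotic-band share 11.6% and 12.02%. The cis compartment score was 0.129 and 0.121 and the trans score 0.0316 and 0.0503. Contacts per cell were 237816 and 223160, so in this library and phase 1CDS1 was not the shallower set, and the duplicated share was 2.99% and 2.24%. The coverage deviation was 0.304 and 0.382 and the share without digestion 30.96% and 34.6%.

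In late-S/G2 of diploid 5_10, with 15 cells of 1CDS1 and 33 of 1CDS2, the replication score was 1.32 and 1.15, insulation 2.19 and 2.09, and the far-contact distance 24.8 and 23.3 Mb. The between-chromosome share was 6.73% and 5.58%, the near-band share 80.5% and 82.5% and the mitotic-band share 8.97% and 8.42%. The alignment score was 0.293 and 0.305, where the mean over all libraries was 0.321 and 0.305. The compartment scores were 0.142 and 0.145 in cis and 0.0283 and 0.0541 in trans. Contacts per cell were 156821 and 293531, the share without digestion 32.02% and 34.3%, the duplicated share 2.53% and 2.74% and the coverage deviation 0.273 and 0.277. In G1 of diploid 5_10, 5 cells of 1CDS1 stood against 10 of 1CDS2, at a mean position in the phase of 38.2% and 66.99%. With fewer than 10 cells the 1CDS1 unit is not among the G1 means above. The alignment score was 0.401 and 0.275, the replication score 1.04 and 1.06, insulation 2.37 and 2.38, and the far-contact distance 20.9 and 25.2 Mb. The between-chromosome share was 6.18% and 6.47%, the near-band share 53.1% and 57.1%, and the mitotic-band share 18.8% and 16.1%. The compartment scores were 0.117 and 0.0884 in cis and 0.0146 and 0.0159 in trans. Contacts per cell were 205843 and 308586, the share without digestion 25.8% and 33.9%, the duplicated share 2.27% and 2.76% and the coverage deviation 0.223 and 0.373.

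Diploid 1_6, with 11 and 12 cells, was compared over all phases together, so the different phase mix of the sets entered its values. The alignment score was 0.289 in 1CDS1 and 0.243 in 1CDS2, the replication score 1.19 and 1.13, insulation 2.32 and 2.25, and the between-chromosome share 9.22% and 8.09%. These 4 features were higher in 1CDS1. The near-band share was 68.4% and 67.6%, the mitotic-band share 13.2% and 13.5%, and the far-contact distance differed by -0.0472 Mb. The cis compartment score was 0.123 and 0.138 and the trans score 0.0249 and 0.0325. Contacts per cell were 127981 and 216896, the share without digestion 26.9% and 28.5%, the duplicated share 5.89% and 4.18%, and the coverage deviation 0.391 and 0.345. Over all cells, 9 of 13 features had the same sign of difference here as over all libraries. Within phases this held for 6 of 13 in G1, 7 of 13 in early-S and 6 of 13 in late-S/G2. Those values rest on between 1 and 7 cells per set and phase.

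The cells of a set also differed among themselves to a different degree. As the SD over cells of a unit and phase, averaged over phases, 0 of 13 features (0%) were called, with 0 at an unadjusted p under 0.05, 6 at the smallest exact p of 0.05 and a lowest adjusted p of 0.108. The replication score varied less in 1CDS1, with an SD of 0.0571 against 0.0747. In late-S/G2 its SD ran from 0.0341 to 0.0585 over the 1CDS1 units and from 0.0842 to 0.0982 over the 1CDS2 units. The SD of position in that phase was 16.3 to 22.3 points in 1CDS1 and 24.1 to 27.6 points in 1CDS2. The coverage deviation varied more in 1CDS1, with 0.209 against 0.149, as did the cis compartment score, with 0.0347 against 0.0284. Contacts per cell varied by 127361 and 161087 and the duplicated share by 0.934 and 1.197 points.

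The cells at mitosis, all of 1CDS2, are given as values. The 17 pre-M cells had a mitotic-band share between 10.2% and 45.1% (median 18.3%), against a median of 8.46% in late-S/G2 cells of 1CDS2. Their between-chromosome share had a median of 2.52% against 5.80%, their insulation 1.98 against 2.11 and their replication score 1.03 against 1.14. The 6 post-M cells had a median insulation of 1.71 and a far-contact distance of 12.5 Mb, against 2.35 and 24.5 Mb in G1 cells of 1CDS2. No such cell of 1CDS1 entered, so the sets could not be compared there.

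Pooled over libraries, quality control itself passed like shares of both sets, but not within diploid 5_10. There 50.0% of listed 1CDS1 cells and 72.9% of listed 1CDS2 cells passed. In all, 72.9% of listed 1CDS1 cells (95% interval 69.1% to 76.5%) and 73.3% of 1CDS2 cells (69.5% to 76.8%) passed. Per unit the share ran from 50.0% to 100% and from 56.8% to 100% (exact p = 0.6), the value of 100% being that of diploid 1_6, for which the table lists passing cells alone. Of the 159 and 157 cells that did not pass, 144 and 136 had fewer contacts than the 20014 of the lowest passing cell.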

How the data were processed

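Single-cell Hi-C features of diploid serum ES cells were taken from the authors' deposited table, joined to libraries through their list of cells. Per the submitters' processing notes, Bowtie2 and mm9 were used. Contacts per cell are a deposited count. Shares without digestion, duplicated, between chromosomes and in the near and mitotic bands are a deposited fraction of each cell, shown in percent, with denominators and band limits not stated. Alignment, compartment, insulation, replication and coverage deviation are each a score made by the authors on an undefined scale. The far-contact distance was read as bp from its range. The order, phases and quality flag are the authors', and which features made the order is not stated. No gene or marker was to be named.

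Unit means needed 10 cells of a phase. Differences were tested by enumerating all arrangements of set labels over libraries (exact, two-sided), with Benjamini-Hochberg adjustment over the features of a comparison. The 13 features were all to be reported averaged over phases and within libraries holding both sets, and elsewhere the called ones or, with none called, the 5 that differed most in units of the SD over libraries; other values given were chosen after they were seen. Members and lists were chosen with earlier results of these data known. Alternatives were minimums of 1, 5 and 20 cells, medians, the 25th to 75th percentile of contacts, leave-one-out, the library as a replicate block, no libraries holding both sets, matching on position, a log scale, pooled cells and units of at least 40 cells. The limit of 0.25 on coverage deviation was added after the data were seen. The test was tested on simulated data. Software was Python 3.11.15 with scipy 1.17.1, pandas 2.3.3 and numpy 2.4.6, and figures were drawn with matplotlib 3.10.9. Depth is given as contacts per cell and unit, and the number of libraries limits the precision.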

Additional observations from a re-analysis of the deposited data

Results flagged for a closer look

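Of 75 groups of 4 or 5 unit values examined, 3 had a unit whose gap to its nearest neighbour exceeded Dixon's 95% limit, where chance gives about 1 in 20 groups. The between-chromosome share of 1CDS1 early-S cells was 7.77% in diploid 2_14, with 7.19% to 7.28% in the other 3 units. The far-contact distance of 1CDS1 late-S/G2 cells was 24.8 Mb in diploid 5_10, with 24.3 to 24.4 Mb in the others. The G1 share of 1CDS2 cells was 33.3% in diploid 1_6, from 4 of 12 cells, with 12.7% to 15.6% in the other 4 units.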

How the results depend on the processing

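The number of libraries limits what the tests can call: 0 features were called in any of the 5 comparisons under any alternative with a p. The replicate block gave no p. Averaged over phases, a call in the main run required all 13 features at the smallest p of 0.05. Without diploid 5_10 the lowest adjusted p there was 0.325. These counts of 0 therefore do not show that the results are stable. Of 48 feature differences, 27 kept their sign under every alternative run, and 39 of 826 single values turned. With the library as a replicate block (the paired difference within libraries holding both sets), the early-S share differed by 27.2 points, the G1 share by -4.96 points and the passing share by -11.5 points. Under that replicate block, these turned: far-contact distance over all cells -0.0981 Mb, and averaged over phases the between-chromosome share 0.379, duplicated share 0.268 (its spread 0.0117) and near-band share 0.159 points. With the minimum of 10 cells, these phase averages rest on diploid 5_10 alone, in early-S and late-S/G2 without G1. Matched on position, the cis score over all cells was 0.00731, the far-contact distance -0.643 Mb, the mitotic-band share -0.188 averaged and -0.391 in late-S/G2, and the near-band share 0.876 averaged, -0.254 in early-S and 0.587 in late-S/G2. At a coverage deviation of 0.25 or more, values were 0.00310 for cis over all cells, 0.00464 for the averaged trans score, 0.536 for the averaged near-band share, and -0.264 averaged, -0.107 in late-S/G2 and 0.378 from G1 to early-S for the mitotic-band share. The coverage deviation of those cells differed by 0.102 averaged, 0.123 in G1 and 0.0655 in early-S. With a minimum of 1 cell, the between-chromosome share was 0.0314 and near-band share 0.388 averaged, the duplicated share 0.2496 in G1, -0.388 from G1 to early-S and 0.117 in spread, the coverage deviation 0.0113 from G1 to early-S and the cis score 0.000954 from early-S to late-S/G2. With 5 cells the between-chromosome share was 0.178. With 20 cells insulation was -0.00270 and the trans score 0.000750, and with medians the cis score was -0.000103, all averaged over phases. Without libraries holding both sets, the near-band share was 0.325, the trans score 0.000875 and the passing share 0.868 points. Leaving out 1 library at a time gave -0.594 to 0.325 for the near-band share (turned without diploid 4, 5_10, 8 or 9), -0.00547 to 0.000875 for the trans score (turned without diploid 5_10), -0.179 to 3.13 points for the G1 share and -9.66 to 0.651 for the passing share (turned without diploid 5_10). For a coverage deviation below 0.25, the average over phases could not be formed, since 1CDS2 had too few such cells in G1. The causes of these turns were not tested.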
